A study of Mus musculus with 7 samples.

Results

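The regions described here were more open in IL-4+ CD4+ T cells, in every library of the mediastinal lymph node (LN) and of the lung, than in IFNγ+ CD4+ T cells of the lung. They were selected on the measured values themselves. In a table of accessible regions, a member was a region whose lowest value in the 5 IL-4+ libraries exceeded its highest value in the 2 IFNγ+ libraries by at least 0.5 on the log2 scale, or 1.41-fold, and whose mean over the 5 IL-4+ libraries was at least the log2 of a density of 5. This gave 666 of 113820 regions, or 0.585%. The minimum held for the mean over both tissues and not for each one: 514 members, or 77.2%, reached it in the mean of each tissue, 70 were below it in LN and 82 in lung IL-4+ cells, and the lowest value of a single IL-4+ library was 0.20. The mirrored rule, with the IFNγ+ libraries above all IL-4+ libraries, gave 3281 regions, and 45194 regions met the minimum of the IL-4+ mean alone. The difference between IL-4+ and IFNγ+ cells is therefore a property that the members were chosen for, and it is given as a description without a test. The rule did not use the comparison of LN with lung IL-4+ cells, which was tested.

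The values came from ATAC-seq, in which a transposase inserts adapters into open chromatin, and they are log2 densities, that is, normalized insertions per kilobase. After removal of region length their distributions nearly coincide between libraries, as after quantile normalization. Log2 differences and folds are therefore those of normalized values, not of counts scaled by library size alone. There were 7 libraries of 50000 sorted cells each: IL-4+ cells of the LN (n = 2), IL-4+ cells of the lung (n = 3) and IFNγ+ cells of the lung (n = 2). All came from C57BL/6 mice on day 8 after infection with 500 L3 larvae of the helminth N. brasiliensis, so no group was uninfected. IL-4+ cells were GFP+ cells of IL-4 4get reporter mice and IFNγ+ cells were YFP+ cells of IFN-gamma Great reporter mice. Reporter line and cytokine population cannot be told apart in this design, and no LN IFNγ+ library was analysed here. The cells were gated as CD3ε+ CD4+ and negative for CD8, B220, NK1.1, CD11b, CD11c and Ter119. The study describes the mice as coming from a single experiment.

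Th2 cells and IL-4+ T follicular helper (Tfh) cells both transcribe Il4 in response to helminths, the former mostly in infected tissue and the latter in the lymph node, where IL-4 acts on B cells. In Th2 cells the factor GATA3, which binds sites with a GATA core, acts on the cluster of Il4, Il13 and Il5 and on its own gene. Th1 cells make IFNγ under T-bet, with Runx factors as partners.

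Stretches of 7 members are shown first, 3 of them at Il4 and the rest at Gata3, Il17rb, Epas1 and Plcb4, because the results return to these genes and to the GATA letters in them. Each is the plus strand of GRCm38 and 120 bases long, and capitals mark every AGATAA on the plus strand or its reverse complement. Stretches that overlap an annotated UTR were left out. The Il4 stretch labelled beside the start is from a member that spans an internal annotated start. The one labelled internal start is from a member whose nearer edge lies 967 bases away from that internal start. The stretch itself lies farther from it and does not hold it. The genes were chosen after their values were seen, and a match is a description of the letters, not of a bound site.
Il4, distal intron, chr11:53605693-53605812: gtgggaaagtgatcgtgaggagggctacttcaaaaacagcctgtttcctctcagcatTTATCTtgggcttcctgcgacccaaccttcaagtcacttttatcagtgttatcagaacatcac
Il4, beside the start, chr11:53617848-53617967: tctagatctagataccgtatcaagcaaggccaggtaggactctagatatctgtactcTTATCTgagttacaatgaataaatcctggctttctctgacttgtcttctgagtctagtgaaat
Il4, internal start, chr11:53614529-53614648: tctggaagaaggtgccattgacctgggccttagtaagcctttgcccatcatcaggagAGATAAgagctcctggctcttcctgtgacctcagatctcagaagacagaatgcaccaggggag
Gata3, chr2:9860218-9860337: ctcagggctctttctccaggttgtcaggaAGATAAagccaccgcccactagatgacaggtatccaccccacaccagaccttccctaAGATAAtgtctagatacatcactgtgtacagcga
Chdh and Il17rb, chr14:30010219-30010338: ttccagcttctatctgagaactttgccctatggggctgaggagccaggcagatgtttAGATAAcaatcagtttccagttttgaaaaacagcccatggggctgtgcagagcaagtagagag
Epas1, chr17:86799100-86799219: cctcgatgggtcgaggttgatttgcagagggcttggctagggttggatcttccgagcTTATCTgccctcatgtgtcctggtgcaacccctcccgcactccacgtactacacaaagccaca
Plcb4, chr2:135901209-135901328: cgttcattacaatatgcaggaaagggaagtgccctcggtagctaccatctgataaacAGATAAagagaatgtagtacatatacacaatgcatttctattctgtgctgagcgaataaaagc
Of these stretches, that at Gata3 held 2 matches and the others 1 each. The Gata3 member held 4 matches over its whole length, from chr2:9858288-9860660.

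Across the 666 members, the median log2 density was 3.06 and 2.90 in LN IL-4+ replicates 1 and 2, and 2.65, 2.85 and 2.90 in lung IL-4+ replicates 1 to 3. It was 1.48 and 1.61 in lung IFNγ+ replicates 1 and 2. Over all regions of the table the medians of the 7 libraries lay between 2.08 and 2.22. The difference between the IL-4+ and the IFNγ+ mean had a median of 1.26 over members, with quartiles of 1.05 and 1.55. Most members were close to the selection limit, since 92 had a gap of at least 1 between the lowest IL-4+ and the highest IFNγ+ library, 24 of at least 1.5 and 9 of at least 2. The 3 members just inside the limit had gaps between 0.5001 and 0.502, and the 3 regions just outside had gaps between 0.4993 and just under 0.5. Calls in limma's contrasts needed a 3-fold change with an adjusted p under 0.05. Against lung IFNγ+ cells, lung IL-4+ cells had 66 such members, beside 0.108% of all regions. LN IL-4+ cells had 169, beside 0.862% of all regions. Both contrasts share the IFNγ+ libraries and were used by the rule, so nothing is read from these counts.

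Single libraries set the gap unevenly. Lung IL-4+ replicate 1 was the lowest IL-4+ library in 232 members, or 34.8%, compared with 14.9% of the regions that met the minimum of the IL-4+ mean. IFNγ+ replicate 2 was the higher IFNγ+ library in 450 members, or 67.6%, compared with 50.5%. Applied without lung IL-4+ replicate 1, the rule gave 1582 regions, 656 of them shared with the 666, and without IFNγ+ replicate 2 it gave 1450. The libraries also fell into 2 classes by the spread of their insertions per region, with lung IL-4+ replicate 1 and LN IL-4+ replicate 2 in the wide class of both IFNγ+ libraries. Within the wide class alone, the IL-4+ mean exceeded the IFNγ+ mean by a median of 1.19 over members, and by 1.30 when the 3 narrow IL-4+ libraries were compared with the IFNγ+ libraries. Over all regions the same medians were 0.02 and -0.02. The rule required both differences to be positive in every member, so nothing is read from them about the spread classes. The libraries held between 14005923 and 91681969 rebuilt insertions. A member held a median of 120 to 494 insertions in the IL-4+ libraries, and of 112 and 219.5 in the IFNγ+ libraries, where 1 member had none.

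At the Th2 cytokine locus on chromosome 11, 9 of 37 regions from 10 kb before Kif3a to 10 kb after Il5 were members. They lay at Il4, at the neighbouring Kif3a, which encodes a kinesin motor subunit, and between Il4 and Il13, and none lay at Rad50 or Il5. Rad50 is a DNA repair gene whose introns carry the control region of the locus, and Il5 encodes the eosinophil growth factor. From Kif3a to 10 kb upstream of Il4, all 18 regions had a higher mean in IL-4+ than in IFNγ+ cells, with a median difference of 1.44 on the log2 scale, and 3 regions within Il4 met the gap but fell below the minimum of the mean.

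**Figure D1:**
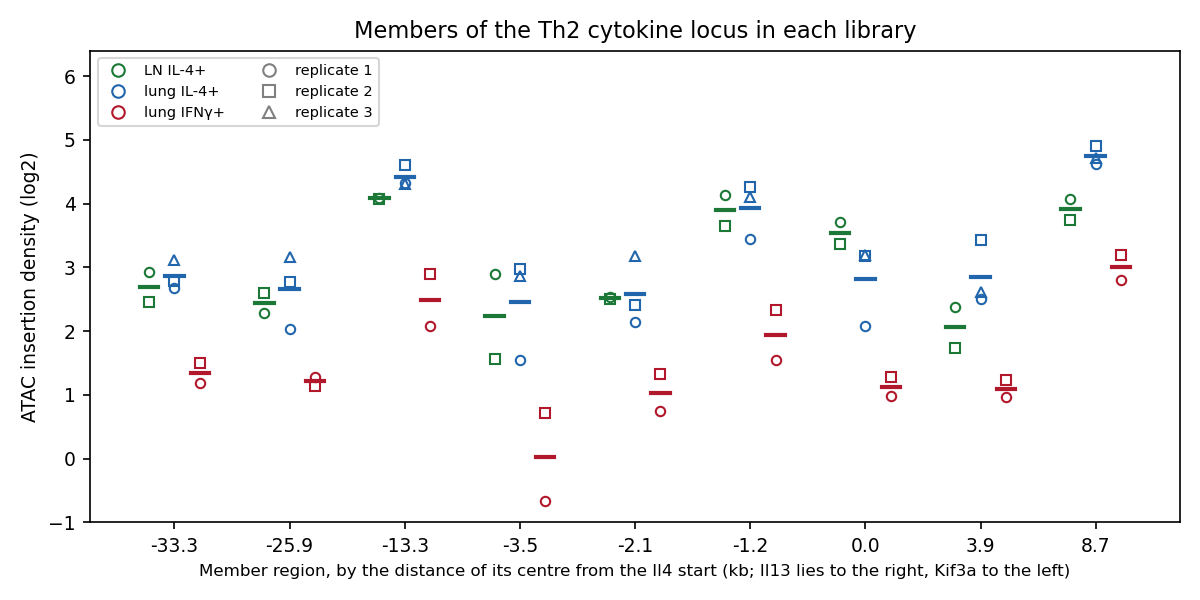
Log2 ATAC density (y axis) of the 9 members of the Th2 cytokine locus in each of the 7 libraries, ordered by the distance of the region's centre from the Il4 start in kb (x axis). Points are libraries, with the replicate number given by the symbol, and bars are means of the libraries of a population. In each member every IL-4+ point lies above both IFNγ+ points, as the rule required.

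The member with the largest gap at Il4, 1.18, lay in the distal intron of the longest annotated gene model (chr11:53604629-53606059). Its log2 density was 4.09 and 4.08 in the LN IL-4+ libraries, 4.32, 4.61 and 4.31 in the lung IL-4+ libraries and 2.08 and 2.90 in the IFNγ+ libraries. LN and lung IL-4+ libraries of this region sat within 0.53 log2 units of each other. A member beside the Il4 start (chr11:53616846-53618000) spans an internal annotated start. It had 4.14 and 3.65 in LN IL-4+, 3.45, 4.26 and 4.11 in lung IL-4+ and 1.55 and 2.33 in IFNγ+ cells. The lung and LN values interleaved. The adjacent member (chr11:53618058-53619204) spans the annotated start of the whole gene. It had 3.72 and 3.37 in LN IL-4+ cells, 2.08, 3.18 and 3.20 in lung IL-4+ cells and 0.98 and 1.28 in IFNγ+ cells. Here both LN values lay above all 3 lung values, and lung IL-4+ replicate 1 was the lowest of the IL-4+ libraries. The member with the lowest IFNγ+ values (chr11:53614128-53616257), 967 bases from the internal start, had -0.67 and 0.71 in the IFNγ+ libraries. Its IL-4+ values split by spread class, with 1.56 and 1.54 in LN replicate 2 and lung replicate 1 and 2.87 to 2.98 in the other 3 libraries. At Kif3a, an intron member (chr11:53584839-53585943) had an LN IL-4+ mean of 2.70 ± 0.34 (SD, n = 2), a lung IL-4+ mean of 2.86 ± 0.22 (SD, n = 3) and an IFNγ+ mean of 1.34 ± 0.22 (SD, n = 2).

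In the tested comparison of the tissues, none of the 9 members of the locus was called by limma, like 653 of all 666 members. Calls were rare over the whole table too, with 1.05% of all regions called higher in lung and 0.695% higher in LN. For the distal Il4 intron member the difference of lung minus LN was 0.32 on the log2 scale (SE 0.27, 95% interval -0.27 to 0.91, limma adjusted p = 0.629), and for the member beside the start it was 0.05 (SE 0.34, interval -0.70 to 0.79, limma adjusted p = 0.968). The member nearest to Il13 (chr11:53626465-53628259) had the largest difference, 0.84 (SE 0.22, limma adjusted p = 0.0765), with all 3 lung values between 4.63 and 4.91 and the LN values at 4.08 and 3.74. From Il13 to Il5, 0 of 19 regions were members. The rule excludes any region where an LN IL-4+ library lies below an IFNγ+ library, so nothing is read from this absence. The median tissue difference there was 1.64. In this stretch limma called 9 of the 19 regions higher in lung than LN IL-4+ cells, beside 1.05% of all regions. It called none of the 18 regions from Kif3a to Il4. Of those 18, 9 were members, whose tissue difference the rule limits, so nothing is read from the contrast of the 2 sides. The IFNγ+ libraries were also high from Il13 to Il5, with a median IL-4+ minus IFNγ+ difference of 0.35. The division of the locus at Il13 was made after the values were seen.

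**Figure D2:**
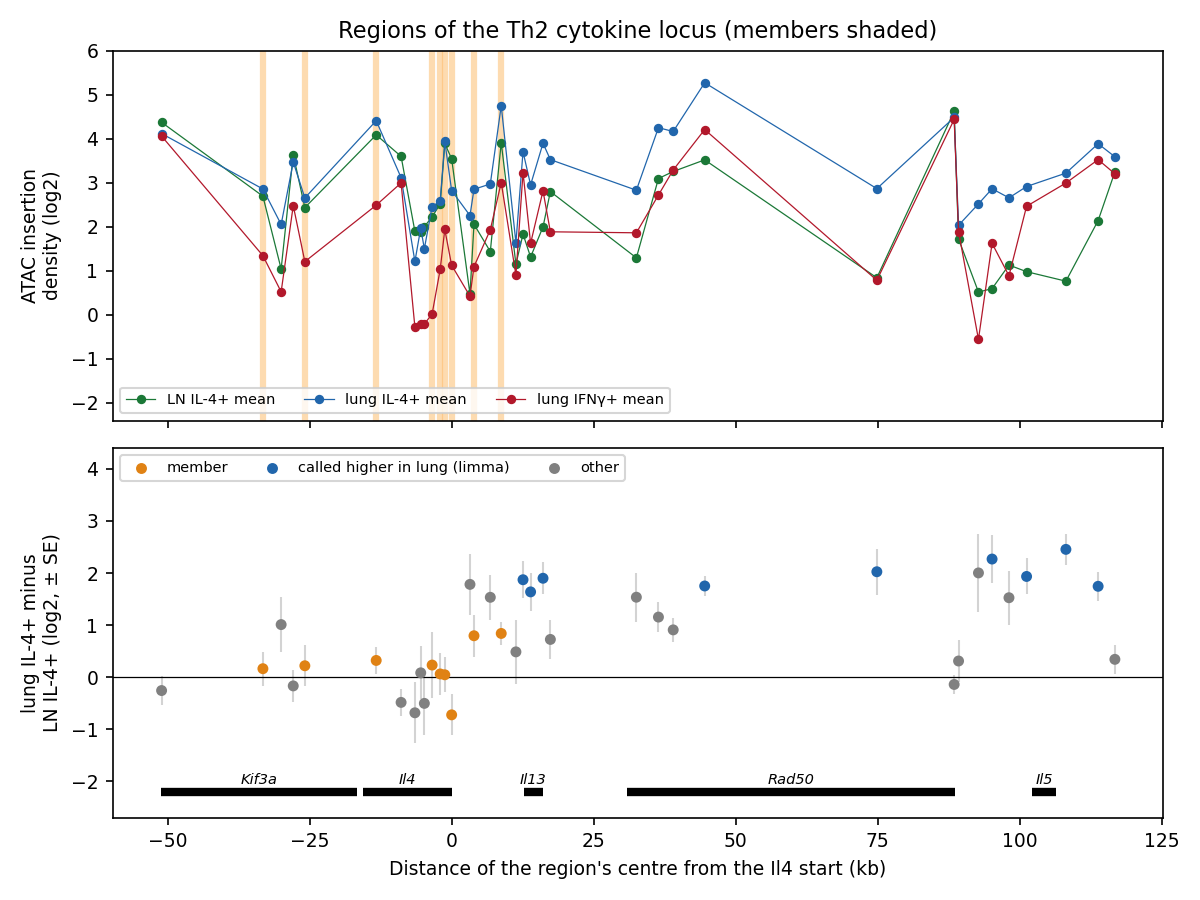
Regions from Kif3a to Il5 by the distance of their centre from the Il4 start in kb (x axis). Above, the mean log2 density of each population, with members shaded; below, the lung minus LN IL-4+ difference on the log2 scale with its limma SE, with genes as black bars. The members lie from Kif3a to the stretch between Il4 and Il13, with differences of -0.72 to 0.84, and the 9 regions called higher in lung lie from Il13 to Il5.

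At Gata3, which encodes the GATA factor that directs Th2 cells, 2 of 26 regions within 10 kb of the gene were members, both at its 3′ end. The member with 4 GATA matches had 2.54 and 2.05 in LN IL-4+, 2.54, 3.53 and 3.99 in lung IL-4+ and 0.84 and 1.45 in IFNγ+ cells. Lung replicates 2 and 3 were highest, but the tissue difference of 1.06 did not pass (SE 0.44, limma adjusted p = 0.270). The other Gata3 member (chr2:9856088-9857051) had 2.21 and 2.08, then 2.74, 2.69 and 3.07, then 1.35 in each IFNγ+ library. A window of 300 kb on each side of the gene held 4 further members, 6 of 90 regions in all. Of those 4, a pair at chr2:9583732-9585548 and chr2:9585781-9587883, about 270 kb beyond the 3′ end, had larger gaps than the members at the gene, 1.22 and 1.19. The first of the pair was at 2.88 and 2.31 in LN IL-4+, 2.73, 2.86 and 3.11 in lung IL-4+ and 0.53 and 1.09 in IFNγ+ cells, and the tissue difference was 0.31 (SE 0.36, limma adjusted p = 0.753). The 2 IL-4+ populations overlapped in it.

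Gene lists were described by the members within 10 kb of their genes, beside 0.585% of all regions. Of 328 regions at 23 Th2 genes, 19 were members, or 5.79%, at 7 of the genes, and 6, or 1.83%, met the mirrored rule. The Th2 cytokine locus alone gave 9 of the 19 members and 3 of the 7 genes. The 4 other lists were near or below the share of all regions. At 20 genes of the IL-4 receptor and STAT6 pathway 2 of 348 regions were members, at 20 Tfh genes 2 of 418, at 15 T cell activation genes 2 of 390, and at 25 Th1 genes 0 of 324. At the Th1 genes 57 regions, or 17.6%, met the mirrored rule, compared with 2.88% of all regions. Besides the locus above and Gata3, the Th2 members lay at Epas1 (4 of 54 regions), Ccr4 (2 of 17) and Il17rb (2 of 7). The remaining genes of the Th2 list had no member. Among them, Il1rl1 had 2 mirrored regions of 23, and Ccr8, Ptgdr2, Cd200r1 and Rbpj had 1 mirrored region each.

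Il17rb, a subunit of the receptor for IL-25, and Chdh, a mitochondrial choline dehydrogenase, start beside each other and shared both members of Il17rb. Chdh had another member in an intron. The region across both starts (chr14:30008746-30009572) had 3.54 and 3.64 in LN IL-4+, 3.72, 3.60 and 3.65 in lung IL-4+ and 2.42 and 2.82 in IFNγ+ cells, so that the 5 IL-4+ libraries lay within 0.18 of each other. The next region (chr14:30009717-30010542), shown above, had a larger gap of 1.27, with 2.53 to 3.03 in the IL-4+ and 0.70 and 1.26 in the IFNγ+ libraries. At Epas1, which encodes the hypoxia-inducible factor HIF-2α, the member with the largest gap (chr17:86833662-86836133) had 3.07 and 2.79 in LN IL-4+, 3.29, 3.84 and 3.82 in lung IL-4+ and 1.65 and 1.77 in IFNγ+ cells. All 4 Epas1 members had a higher mean in lung than in LN, by 0.28 to 0.75, and none passed (limma adjusted p from 0.246 to 0.655). Ccr4, a chemokine receptor of Th2 cells, had a member 3′ of the gene (chr9:114484678-114485834) at 2.77 and 2.41, then 2.13, 2.31 and 2.66, and 1.49 and 1.43 in IFNγ+ cells. The 2 members at the T cell activation genes were introns of Nfatc2, a calcium-regulated NFAT factor, with gaps of 0.58 and 0.57. Members outside the Th2 list were single regions at Gfi1, a transcriptional repressor, and at Bhlhe41, Slamf6 and Il6ra. At Slamf6, a SLAM receptor on T cells, the values were 2.29 and 2.42 in LN, 2.11, 2.74 and 2.34 in lung and 1.34 and 1.41 in IFNγ+ cells. Il6ra, a receptor chain for IL-6, had 3.76 and 3.80 in LN, 2.29, 2.54 and 2.40 in lung and 1.78 and 1.65 in IFNγ+ cells. Both LN values of Il6ra lay far above the lung values, and the difference of -1.37 passed the adjusted p but not the 3-fold limit (SE 0.28, limma adjusted p = 0.0296).

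Of the 666 members, 127 lay within 10 kb of another member and 248 within 100 kb, and the other 418, or 62.8%, had no member that near. They touched 553 protein-coding genes with 10 kb on each side, of which 78 had at least 2 and 22 at least 3, and 138 members were near no protein-coding gene. The gene with the most members was Plcb4, encoding a phospholipase C that acts downstream of G protein-coupled receptors, with 11 of 49 regions. Il4 followed with 8 of 14, then Nav2, encoding a cytoskeletal navigator protein, with 6 of 80, Cdk17, a cyclin-dependent kinase, with 5 of 61, and Elk3, an ETS family factor, with 4 of 32. Of 6 genes with 4 members, Elk3 had the largest gap.

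The Plcb4 members differed among themselves between the tissues. The most open (chr2:135891100-135892244) had 5.64 and 6.33 in LN IL-4+, 5.89, 5.73 and 5.78 in lung IL-4+ and 4.75 and 4.77 in IFNγ+ cells, and the 2 tissues overlapped. The member with the largest gap, 1.88 (chr2:135897352-135898334), had 3.32 and 3.80, then 2.65, 2.82 and 3.26, then 0.65 and 0.77. Of its neighbours, chr2:135884191-135884944 had 3.44 and 3.82 in LN against 1.75, 1.41 and 2.38 in lung IL-4+ cells, and chr2:135899651-135900338 had 3.71 and 4.36 against 2.61, 2.11 and 2.03. These 2 members were called higher in LN, each at a difference of -1.79 (SE 0.41 and 0.35, limma adjusted p = 0.0481 and 0.0246). A member 984 bases from an internal start (chr2:135885439-135886710) lay less than 1 kb from the first of them. It had a difference of -0.07 (SE 0.31, interval -0.74 to 0.61, limma adjusted p = 0.948). At Nav2, the 6 members had gaps of 0.56 to 1.28 and tissue differences of -1.13 to 0.81. None of them was called, like 653 of all 666 members, beside 1.05% of all regions called higher in lung and 0.695% higher in LN.

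Of all members 135 lay within 1 kb of the start of a protein-coding gene. The largest gap among them, 1.55, was found at Dcakd, a gene of the coenzyme A kinase family, with 3.28 and 2.14 in LN IL-4+, 2.25, 1.84 and 2.56 in lung IL-4+ and 0.29 and -0.95 in IFNγ+ cells. Adamtsl3, which encodes a matrix protein, had the same gap of 1.55, with 3.31 and 4.49, then 3.57, 3.60 and 3.24, then 0.97 and 1.69. An internal start of Plcb4 and starts of Zfp236, Chdh, Brd1, Nav2, Il4, Kntc1 and Il9r followed, with gaps of 1.45 down to 1.10. Il9r, the receptor chain for IL-9, had 4.24 and 4.18 in LN IL-4+, 4.28, 4.12 and 4.05 in lung IL-4+ and 2.66 and 2.95 in IFNγ+ cells. Its tissue difference was -0.06 (SE 0.21, interval -0.53 to 0.41, limma adjusted p = 0.930). All 10 of these starts had a tissue difference within 0.5 log2 units, beside 71.6% of members and 57.8% of all regions. None of them was called, and 653 of all 666 members were not called. Of all regions 1.05% were called higher in lung and 0.695% higher in LN.

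Lung and LN IL-4+ cells were compared with limma over all 113820 regions, with the same limits for a call. Of the 666 members 1 was called higher in lung, or 0.15%, beside 1.05% of all regions, and 12 were called higher in LN, or 1.80%, beside 0.695% of all regions. The rule required all 5 IL-4+ libraries of a member to lie above the IFNγ+ libraries, which limits how far the tissues can differ, so nothing is read from their closeness. The IFNγ+ libraries were all of lung, so the rule also removes regions open across lung and low in LN. Nothing is therefore read from the direction of the differences over members. The 95% interval of the tissue difference lay within 3-fold in 570 members, or 85.6%, beside 57.5% of all regions and 83.7% of the regions that met the IL-4+ minimum. Within 1.41-fold were 71.6% of members and 68.2% of the regions that met the minimum. The median difference of lung minus LN was -0.11 over members and -0.03 over all regions. Within the wide class it was -0.15, and within the narrow class -0.09. At least 1.41-fold higher were 57 members in lung and 132 in LN, and the shares of all regions in each direction were not counted. The quartiles of the difference were -0.42 and 0.17 over members and -0.41 and 0.41 over all regions. Over the regions that met the IL-4+ minimum they were -0.32 and 0.28. With the replicate number as a block limma called 0 members in either direction, although 0 in lung and 14 in LN passed the fold with an unadjusted p under 0.05. Without lung IL-4+ replicate 2 it called 0 in lung and 1 in LN, and without lung IL-4+ replicate 3 or LN IL-4+ replicate 2 it called 2 in LN.

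**Figure D3:**
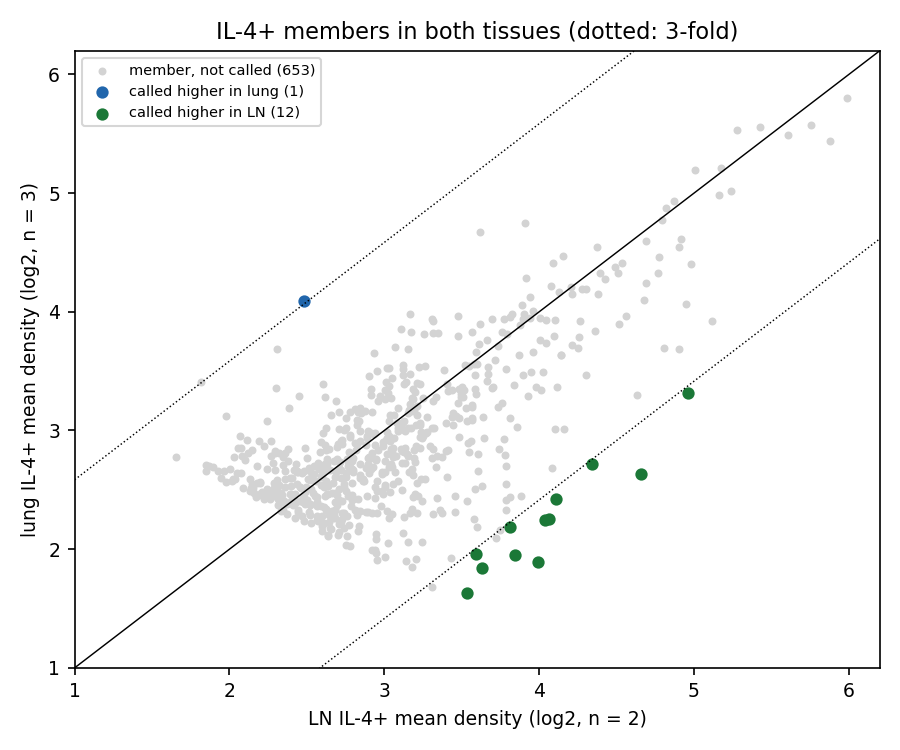
Mean log2 density of the 666 members in LN IL-4+ cells (x axis, n = 2) and lung IL-4+ cells (y axis, n = 3). Each point is a member, the solid line marks equal values and the dotted lines a 3-fold difference; the 1 member called higher in lung and the 12 called higher in LN are colored, and 653 were not called.

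The member called higher in lung lay 12 kb from Prpsap1 (chr11:116506370-116506835), a regulator of nucleotide precursor synthesis. It had 3.98, 4.08 and 4.22 in lung IL-4+, 2.41 and 2.56 in LN IL-4+ and 1.78 and 1.77 in IFNγ+ cells, a difference of 1.61 (SE 0.25, limma adjusted p = 0.0109). The largest difference toward LN was found beside Ei24 (chr9:36802275-36802742), with 3.52 and 4.46 in LN, 1.46, 2.50 and 1.71 in lung IL-4+ and 0.64 and 0.67 in IFNγ+ cells. It was -2.10 (SE 0.43, limma adjusted p = 0.0298). A remote member whose nearest protein-coding start was that of Id2, an inhibitor of E-protein factors, 504 kb away (chr12:25600944-25601389), had 4.39 and 4.92 in LN IL-4+ cells, 0.30 and 1.00 in IFNγ+ cells and, in between, a lung IL-4+ mean of 2.63 ± 0.34 (SD, n = 3). Its LN values lay above all others, and its lung IL-4+ values stood between LN and IFNγ+ values (-2.02, SE 0.35, limma adjusted p = 0.0155). The best supported difference was in an exon of Fbln1, a matrix gene (chr15:85232646-85233698), where LN IL-4+ cells had 4.96 ± 0.05 (SD, n = 2), lung IL-4+ cells 3.35, 3.41 and 3.20 and IFNγ+ cells 2.36 and 2.69 (-1.64, SE 0.22, limma adjusted p = 0.00639). The other members called higher in LN, besides the 2 at Plcb4, lay within Fam102b, Mrap2, Mob3b, Tecpr2 and Smyd3 and nearest to the starts of Uck2 and Cebpa, with differences of -1.90 to -1.62.

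Sequence letters were counted in the central 200 bp of each region on both strands. The GATA letters AGATAA stood in 127 members, or 19.1%, compared with 10.3% of all regions, 8.96% of the regions that met the IL-4+ minimum and 10.1% of the mirrored regions. Outside promoters the shares were 22.0%, 11.5%, 11.4% and 9.76% in the same order. Over the whole region 53.9% of members and 29.6% of all regions had a match, but members were longer, with a median of 926.5 bp against 486.5 bp. Among regions of at most 600 bp the shares in the central 200 bp were 28.9% and 10.9%, and among longer regions 16.2% and 9.44%. Off chromosomes 10 and 11, 19.5% of members had a match. The ratio of the members' share to that of all regions was 1.84, and it was 1.33 for the regions that the rule gave without lung IL-4+ replicate 1. Members with a match had a median gap of 0.75 and those without of 0.67.

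**Figure D4:**
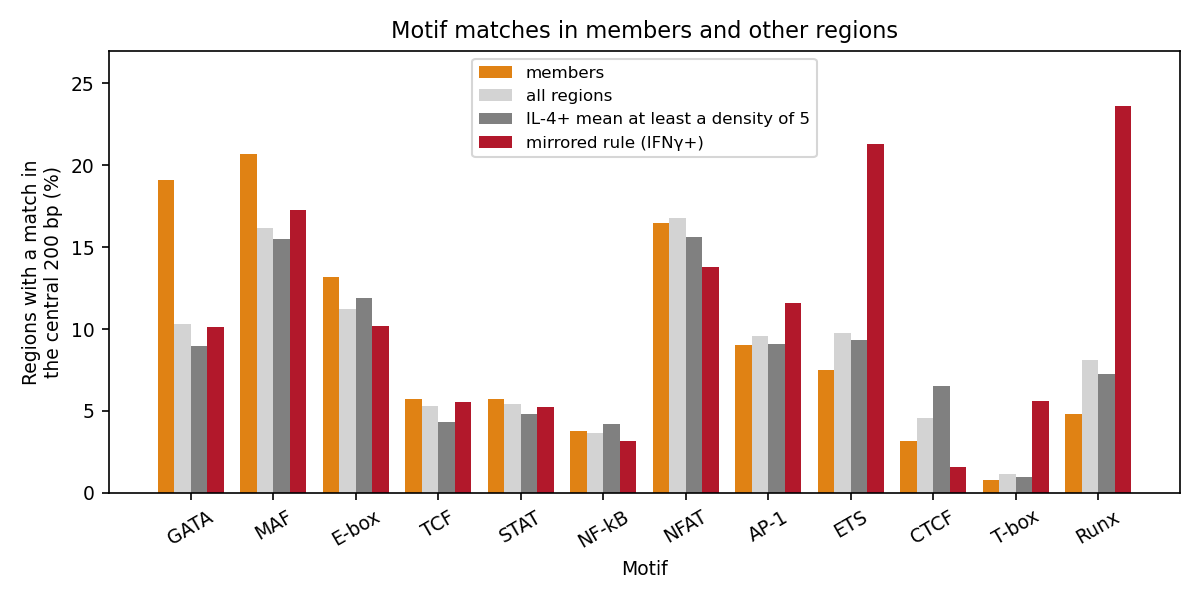
Share of regions in percent (y axis) with the letters of each of 12 motifs in the central 200 bp (x axis), for the 666 members, all 113820 regions, the 45194 regions that met the IL-4+ minimum and the 3281 mirrored regions. GATA stands highest in members relative to all regions, 19.1% against 10.3%. Runx, ETS, T-box and AP-1 stand highest in mirrored regions, AP-1 with 11.6% against 9.59% of all regions.

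Taken over all lengths, the other motifs were closer to the shares of all regions. The MAF half-site TGCTGA stood in 20.7% of members and 16.2% of all regions, and the E-box CAGCTG in 13.2% and 11.2%. The NFAT letters TGGAAA were found in 16.5% and 16.8%, the AP-1 letters TGANTCA in 9.01% and 9.59%, the TCF letters TTCAAAG in 5.71% and 5.29%, the STAT palindrome in 5.71% and 5.44%, and the NF-kB consensus in 3.75% and 3.64%. The Runx letters AACCACA were less frequent in members, at 4.80% compared with 8.14% of all regions and 23.6% of the mirrored regions. The ETS letters AGGAAGT followed the same order, at 7.51%, 9.74% and 21.3%, and so did the T-box consensus at 0.751%, 1.16% and 5.58%. The order did not hold for Runx in the 92 members with a gap of at least 1. Of these, 11, or 12.0%, had Runx letters, more than the share of all regions. ETS letters stood in 6.52% of them and the T-box consensus in 0. CTCF letters AGGGGGC stood in 3.15% of members and 4.55% of all regions. By tissue, the 132 members at least 1.41-fold higher in LN had GATA letters in 23.5%, AP-1 letters in 13.6% and TCF letters in 7.58%, and the 57 members at least 1.41-fold higher in lung had 21.1%, 7.02% and 1.75%. The 477 members between them had 17.6%, 7.97% and 5.66%. Of the members higher in lung 1 alone had TCF letters. Other motifs stood in the opposite order, with E-box letters in 13.6% of the members higher in LN and 21.1% of those higher in lung, ETS letters in 6.82% and 14.0%, and Runx letters in 4.55% and 7.02%. Regions near each other share sequence, and these shares were not tested.

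By annotation 37.4% of members lay in introns, 24.9% between genes, 24.3% within 1 kb of any annotated transcript start and 13.4% in exons. The shares over all regions were 37.2%, 26.6%, 27.8% and 8.39%. Of regions that met the IL-4+ minimum 43.2% were at a start, and of mirrored regions 11.6%. The median distance to a protein-coding start was 9740 bp for members, 3801 bp for regions that met the IL-4+ minimum and 16772 bp for mirrored regions. Members were spread over 20 chromosomes, from 1 of 2181 regions on X to 83 of 7245 on chromosome 11, or 1.15%. Within 1 Mb of Il4, which carries the reporter in the IL-4+ line, 12 of 202 regions were members, and within 1 Mb of Ifng, which carries that of the IFNγ+ line, 0 of 266 were.

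The largest gaps lay mostly in a few stretches. The interval from 93 to 94 Mb of chromosome 10, around Cfap54, Cdk17, Elk3 and Snrpf, held 15 members and 11 mirrored regions among 189. There, 29 regions, or 15.3%, had a mean difference of at least 4-fold between IL-4+ and IFNγ+ cells in either direction, compared with 1.59% of all regions. The member with the largest gap of the table, 5.07, lay 22 kb from Snrpf (chr10:93611393-93611897), with 2.27 and 3.39 in LN IL-4+, 2.93, 1.93 and 1.60 in lung IL-4+ and -3.47 and -3.97 in IFNγ+ cells. Both IFNγ+ libraries had 0 rebuilt insertions in it, so that their values come from the offset of the normalization and the gap is no measured fold. In an exon within Cdk17 and Elk3 (chr10:93262112-93262852) the values were 3.58 and 3.47, then 3.30, 3.20 and 3.08, and 0.17 in each IFNγ+ library. Of the 10 members with the largest gaps, 4 lay in this stretch, 2 on chromosome 11 near Gemin5 and Hint1, 2 on chromosome 13 nearest to Gm10260, and 1 each near Pik3c3 and in Plcb4. None of the 10 was called between the tissues, like 653 of all 666 members, beside 1.05% of all regions called higher in lung and 0.695% higher in LN. The member near Gemin5 (chr11:58126139-58127071) had 4.96 and 5.01 in LN IL-4+, 4.48, 4.58 and 4.16 in lung IL-4+ and 1.45 and 1.40 in IFNγ+ cells. The part of the reporter lines in these stretches was not tested. Other intervals of 1 Mb with at least 8 members were those of Plcb4 (11 of 58 regions), the Th2 cytokine locus (11 of 119), Epas1 (8 of 143) and 106 to 107 Mb of chromosome 12 near Vrk1 (8 of 42), and they held 0, 6, 2 and 1 mirrored regions.

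**Figure D5:**
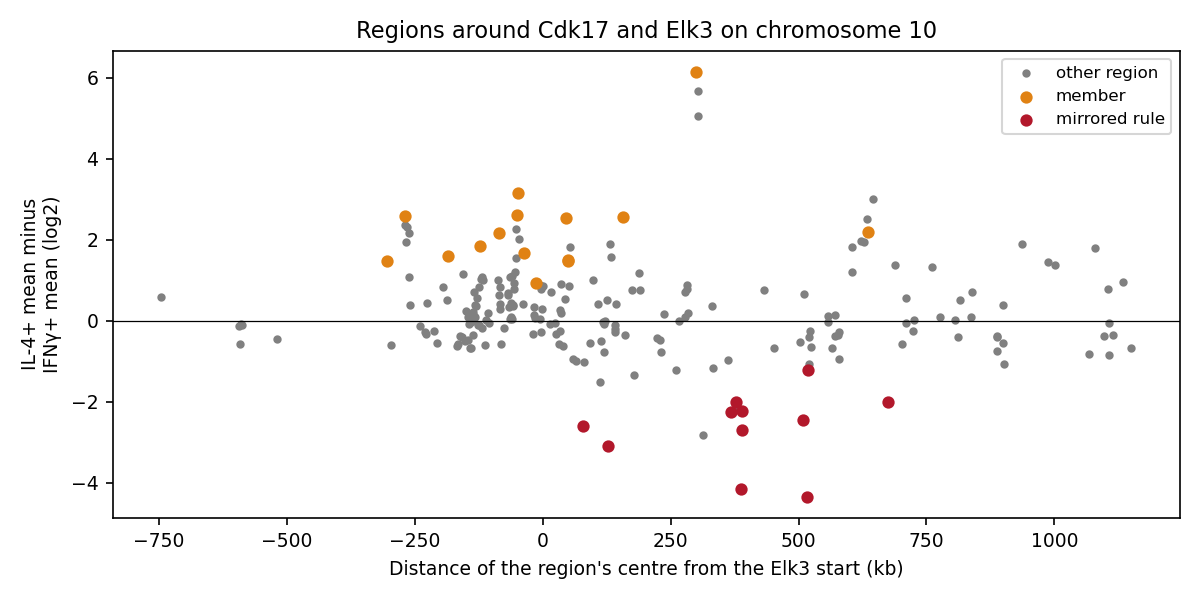
Difference between the IL-4+ mean (n = 5) and the IFNγ+ mean (n = 2) on the log2 scale (y axis) for each region on both sides of the Elk3 start on chromosome 10, by the distance of the region's centre in kb (x axis). Members (largest difference 6.14, against IFNγ+ libraries with 0 rebuilt insertions) and mirrored regions are mixed with regions near 0. The stretch was chosen after its values were seen.

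As a check of the sorted cells, promoter regions of marker genes were examined. Of 7 T cell genes 6 had a promoter region, all with a mean density of at least 5. Their densities summed to 105 to 132 in the LN libraries, 93.9 to 130 in the lung IL-4+ libraries and 89.2 to 90.2 in the IFNγ+ libraries. Of 7 basophil, mast cell and eosinophil genes Gata2 alone had one, with a density of 2.83 to 3.67 in LN IL-4+, 2.08 to 4.05 in lung IL-4+ and 1.37 to 1.79 in IFNγ+ cells. The Cd8b1 region had 6.61 to 7.31, 2.95 to 5.57 and 3.94 to 4.09, and the Klrb1c region, an NK marker, 2.01 to 2.50, 1.15 to 3.98 and 5.49 to 7.66. Of 5 macrophage and monocyte genes 2 had a region, with summed densities of 7.19 to 16.9, 7.18 to 20.4 and 12.0 to 15.4. On the log2 scale Cd68 overlapped between the populations, at 2.43 to 4.13 in the IL-4+ libraries and 2.94 and 2.71 in the IFNγ+ libraries. Itgam, which encodes CD11b, did not overlap, at -0.16 to 1.53 in the IL-4+ libraries and 2.96 and 2.43 in the IFNγ+ libraries. Of 3 lung epithelial genes 2 had a region, with summed densities of 17.8 to 24.7, 17.3 to 22.3 and 24.5 to 26.6. The part of other cells in the members was not tested.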

How the data were processed

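ATAC-seq of 7 libraries was re-analysed from a table of accessible regions. The authors trimmed the reads, mapped them to GRCm38 with Bowtie2 2.3.2, marked duplicates, called summits per replicate with MACS2 2.1.1, merged fixed-width regions over replicates, removed the Y chromosome, counted transposase insertions, normalized them with voom (limma 3.38.3, R 3.5.1) and divided by region length. The deposited values are log2 densities, one column per library, and after removal of region length their distributions nearly coincide, as after quantile normalization. Region starts count from 0 in the file and are printed from 1. Insertions per region were rebuilt from the ranks of values tied to 8 decimals and are lower bounds.

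All 113820 values per library were fitted with limma 3.58.1 in R 4.3.3 (1 mean per population, eBayes with trend, Benjamini-Hochberg adjustment, no filter or pseudocount), which was also tested on simulated data. Tables used Python 3.11.15. Regions were annotated with GENCODE M21. The alternatives were other limits of the rule, scalings, filters, fits and motif or promoter windows, and each library left out in turn; those that left out a library for motifs, promoters and gene lists were added after the data were seen. The members, gene lists and alternatives were chosen with earlier results of these data known. Named regions were the members at the Th2 cytokine locus, the 10 largest gaps overall and at protein-coding starts, up to 5 called members per direction, list genes with at least 2 members, the 5 genes with most members, and the 3 regions on each side of the gap limit. Other named regions were chosen after their values were seen. Replicates are separate samples of 1 experiment, and the labels do not say that equal numbers pair them. Some marker and sequence results are not reported here.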

Additional observations from a re-analysis of the deposited data

Results flagged for a closer look

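In the 13 members called between the tissues, the excess of IL-4+ over IFNγ+ cells differed at least 3-fold between lung and LN, with an adjusted p under 0.05. Both excesses share the IFNγ+ libraries, so the limma contrast of lung minus LN tests that difference. More members passed the adjusted p with no fold minimum, as given below, and a member not called may still differ. Regions outside genes are given by the nearest protein-coding start. The log2 difference of lung minus LN was 1.61 at Prpsap1. Toward LN it was -2.10 at Ei24, -2.02 at Id2, -1.90 at Fam102b, -1.89 at Mrap2, -1.81 at Uck2, -1.79 at each of the 2 Plcb4 members, -1.68 at Mob3b, -1.64 at Fbln1, -1.63 at Cebpa, -1.63 at Tecpr2 and -1.62 at Smyd3. In each of the 13, the libraries of the 2 tissues did not overlap. The limits of a call favour such regions, so nothing further is read from it.

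Of 19 other settings of the fit, the Fbln1 region was called in 14, the regions at Id2 and Mob3b in 12, those at Prpsap1 and Uck2 and 1 Plcb4 region in 11, and the others in 5 to 9. The sign was kept in all settings for all 13 members, with the difference at Ei24 between -2.57 and -1.63 and that at Prpsap1 between 1.45 and 1.68. Every group held fewer than 4 libraries, so no library was examined as an outlier.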

How the results depend on the processing

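The number of members followed the limits of the rule. It was 1895 with a gap of 0.25, 92 with a gap of 1, 1783 with a density minimum of 1 and 149 with a minimum of 10, while quantile normalization gave 618 (563 shared) and median centring 505. Leaving out 1 library gave 821 to 1582 members. The highest count came without replicate 1 of lung IL-4+ cells, followed by 1450 without replicate 2 of IFNγ+ cells, 1253 without replicate 2 of LN cells and 1006 without replicate 1 of IFNγ+ cells.

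The calls between the tissues were not stable. For members higher in lung, log2(density + 1) and median centring gave 0 calls, no fold minimum 2 and no variance trend 0 (limma, 0, 0, 2 and 2 at the unadjusted p). For members higher in LN, log2(density + 1) gave 6, array weights 6, no fold minimum 21 and no variance trend 0 (14 unadjusted). With the replicate block, and with the block and a GC correction together, 0 and 0 members were called, with 14 and 13 higher in LN at the unadjusted p. The labels do not pair equal numbers, and the deviations of same-numbered LN and lung IL-4+ libraries correlated at -0.542 and -0.297. Leaving out 1 library gave 0 to 1 calls in lung and 1 to 7 in LN, where a lone library was assumed to vary like the other groups. In LN there were 7 calls without replicate 1 of either tissue, 2 without replicate 2 of the LN, 1 and 2 without replicates 2 and 3 of the lung IL-4+ cells, and 3 without either IFNγ+ library. In lung the call was lost without LN replicate 1 and without lung IL-4+ replicates 2 or 3 (limma, 3, 1 and 0 at the unadjusted p). The cause was not tested. The median tissue difference stayed between -0.16 and -0.03 and the members within 3-fold between 469 and 612 in these settings.

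The share of members in promoters was 20.0% within 500 bp and 33.0% within 2 kb of a start, by the construction of the window. Alternatives added after seeing the data left out each library from the rule, which gave promoter shares of 20.5% to 29.6% and GATA ratios of 1.33 to 2.04, the lowest without replicate 1 of lung IL-4+ cells. In the central 400 bp the GATA ratio was 1.48. Gene bodies alone left 11 members at Th2 genes. The number of members at Th2 genes was 16 to 28 without 1 library, and 0 members lay at Th1 genes in every window tried. With 2 or 3 libraries per population, the p-values measure only the spread between these samples.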
